A study of Homo sapiens with 9 samples.

Results

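The AP-1 genes of the FOS and JUN families were followed in MDA-MB-231 cells, an established line from a triple-negative breast cancer. The members were the features whose symbol is FOS, FOSB, FOSL1, FOSL2, JUN, JUNB or JUND, which gave 7 of the 25854 features with a symbol, among 46846 in all. Cells had been given 10 nM pladienolide B for 6 h, 3.3 µM indisulam for 12 h, or the solvent DMSO with a time labelled 12 h, with 3 polyadenylated RNA libraries in each group. Pladienolide B differed from DMSO in drug and in hours at once, so these cannot be told apart in that comparison. No genotype or transgene differs between the groups, and nothing in the labels says that the 3 libraries of a group stem from cultures of their own. The p-values therefore refer only to the spread among these libraries.

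Pladienolide B is a macrolide that binds the SF3b complex, the part of the U2 snRNP that holds the branch site of an intron. Indisulam is a sulfonamide that makes the ubiquitin ligase DCAF15 bind RBM39, a splicing factor, which is then degraded. AP-1 is a dimer of basic leucine zipper proteins. JUN proteins pair with each other or with FOS proteins, whereas FOS proteins need a partner, and the dimers bind DNA elements of the TPA-response and cAMP-response types. FOS and FOSB are immediate early genes, transcribed within minutes of a stimulus and shut off soon after, while FOSL1 (FRA-1) and FOSL2 (FRA-2) are more lasting members. FOSL1 is known as a prominent AP-1 protein of mesenchymal-like triple-negative breast cancer cells.

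JUN, JUNB and JUND have no intron, and the FOS genes have several. In the transcripts of GENCODE v29 (GRCh38) that are linked to RefSeq, each JUN gene had 1 exon, and each FOS gene had 4 exons and 3 introns. A further GENCODE transcript of JUND had 2 exons. The introns summed to 1299 bases in FOS, 3409 in FOSB, 6638 in FOSL1 and 17747 in FOSL2, of which the first FOSL2 intron took 10284. In hg38 the deposited features were JUN (GSHG0002512) at chr1:58780791-58784047, JUNB (GSHG0021212) at chr19:12791475-12793315 and JUND (GSHG0022521) at chr19:18279694-18281622. FOSB (GSHG0021760) lay at chr19:45467995-45475179, FOSL1 (GSHG0007909) at chr11:65892019-65900545 and FOSL2 (GSHG0023663) at chr2:28392800-28417317. The feature named FOS (GSHG0012337) ran over chr14:75278828-75709788, which is 430961 bases, whereas the GENCODE gene ends at 75282230. JUN, JUND and FOSL1 lie on the minus strand and the others on the plus strand.

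The 100 bases before the transcription start are shown for the 6 members that matched the RefSeq promoter table (GRCh38.p14), since several members moved together and promoters of early genes are known to hold elements of the kinds searched here. They are read 5′ to 3′ on the strand of the gene, and capitals mark every match to 1 of the motifs searched.
FOS: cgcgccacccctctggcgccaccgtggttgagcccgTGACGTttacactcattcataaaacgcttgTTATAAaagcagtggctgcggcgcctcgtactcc
FOSB: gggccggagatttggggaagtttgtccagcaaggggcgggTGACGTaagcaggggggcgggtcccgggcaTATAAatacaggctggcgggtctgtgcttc
FOSL2: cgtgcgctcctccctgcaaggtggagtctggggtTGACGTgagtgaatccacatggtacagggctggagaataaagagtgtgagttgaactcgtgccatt
JUN: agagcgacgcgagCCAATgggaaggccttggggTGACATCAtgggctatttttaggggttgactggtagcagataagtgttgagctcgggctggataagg
JUNB: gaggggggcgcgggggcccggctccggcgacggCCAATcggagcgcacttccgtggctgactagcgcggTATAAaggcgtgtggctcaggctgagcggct
JUND: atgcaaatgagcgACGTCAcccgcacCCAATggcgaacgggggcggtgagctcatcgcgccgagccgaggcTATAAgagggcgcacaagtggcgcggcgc
These windows lie at chr14:75278728-75278827, plus strand, at chr19:45467896-45467995, plus strand, at chr2:28392758-28392857, plus strand, at chr1:58784048-58784147, minus strand, at chr19:12791386-12791485, plus strand and at chr19:18281623-18281722, minus strand, in the same order as shown. By GENCODE v29 the JUN and FOSL2 windows and the FOS window from base 75278774 on, with its TATAA, lie inside the gene, because its starts differ from those of RefSeq. Both strands were searched for TGACGT, which is the core of a cAMP-response element. They were also searched for the element spelled TGACNTCA and for the TPA-response element, spelled TGANTCA. Further motifs searched were the TATA motif, spelled TATAA, the element bound by NF-Y, spelled CCAAT, and the CArG box, the site of SRF. FOS held TGACGT from −64 to −59 of the start, FOSB from −60 to −55 and FOSL2 from −66 to −61. JUN held the related TGACATCA from −67 to −60, and JUND held TGACGT on the opposite strand from −87 to −82. TGACGT was thus in 4 of the 6 windows, against 4.25% of 35116 RefSeq windows of the same length, and TGACNTCA in 1, against 4.37%. Of the genes with TGACGT, FOS, FOSB and FOSL2 rose with pladienolide B against DMSO and JUND fell. Of those without it, JUNB rose and JUN fell. FOSL1, which rose, had no window. TATAA was in 4 of 6 (FOS, FOSB, JUNB and JUND), against 9.0%, and in FOS an opposite-strand match overlaps it. CCAAT was in the 3 JUN genes, against 18.1% of all windows. TGANTCA was in none of the 6, against 2.75%, and the CArG box was in none, against 0.578%. A match describes these letters only, and elements further upstream than these 100 bases were not searched for.

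The libraries held 59312100 to 83910831 reads, and all deposited values were whole multiples of the value of 1 read. All 7 members passed the filter on low values (a mean of at least 10 over the 9 libraries), which left 16846 genes tested. VIM, CD44, AXL and CAV1, markers of a mesenchymal-like breast cancer line, were high in every library. EGFR, a further such marker, had 4966 to 5997 with pladienolide B, 9070 to 9348 with indisulam and 10151 to 11119 with DMSO. The receptor genes ESR1 and PGR were at or near 0. ERBB2 was detected in all libraries, with 5102 as its lowest normalised read count. So were the luminal genes EPCAM, GATA3 and CDH1. EPCAM had 1555 to 1895 with pladienolide B, 969 to 1129 with indisulam and 961 to 989 with DMSO. GATA3 had 1405 to 1599 with pladienolide B, 482 to 536 with indisulam and 381 to 403 with DMSO. CDH1 was lower, with 98.0 to 117, 54.7 to 93.4 and 60.2 to 83.6 in the same order. The 5 leukocyte markers summed to 85.1 to 129 with pladienolide B, 63.9 to 77.9 with indisulam and 52.8 to 67.7 with DMSO. The 5 fibroblast markers summed to 1065 to 1609 with pladienolide B, 1053 to 1488 with indisulam and 1083 to 1464 with DMSO. The part of these in the results was not tested. The normalised totals were 82366487 to 87510746 in the pladienolide B libraries, 62895851 to 63690595 in the indisulam libraries and 60435009 to 61583500 in the DMSO libraries. When every library was set to the same total, the median log2 fold change of all genes between pladienolide B and DMSO moved to −0.48, against −0.01 with the authors' scaling.

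Pladienolide B against DMSO addressed how an SF3b inhibitor changes these transcripts. All 4 FOS genes and JUNB rose, while JUN and JUND fell. The count of members that rose was 5 of 7, where 34.3% of all genes tested rose, and the count that fell was 2 of 7, where 35.5% fell (limma, adjusted p below 0.05). With every library at the same total, the split was 2 higher (FOSL1 and FOSL2) and 2 lower (JUN and JUND). Fewer cells, or less RNA per cell, cannot be told apart from a change of a transcript's share in such bulk libraries.

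The JUN genes parted from each other. JUN, the founding AP-1 subunit and a target of the JNK kinases, had normalised read counts of 6237, 6661 and 6740 in the pladienolide B libraries, against 9536, 10441 and 10205 in the DMSO libraries. All 3 pladienolide B libraries lay below all 3 DMSO libraries. The log2 fold change was −0.62 ± 0.06 (SE; adjusted p = 3.2e-07). JUND, a JUN protein that is usually present without a stimulus, had 2466, 2995 and 2515 with pladienolide B, against 4921, 5144 and 4306 with DMSO. The groups did not overlap, and JUND fell by 0.85 on the log2 scale (SE 0.10, adjusted p = 4.02e-06). JUNB, an early gene whose protein is a weaker activator than JUN, went the other way, with 3365, 4158 and 3633 in pladienolide B libraries and 2167, 2493 and 2337 in DMSO libraries. These groups did not overlap either, and the log2 fold change was 0.67 ± 0.09 (adjusted p = 1.94e-05). At the same total per library the JUNB value was 0.20 with an adjusted p of 0.0584.

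FOSL1 encodes FRA-1, which needs a JUN partner to bind DNA. It had normalised read counts of 176660, 185969 and 168559 in pladienolide B libraries and 60639, 66781 and 66323 in DMSO libraries. Every pladienolide B library lay far above every DMSO library, and the ratio of the means was 2.74. The log2 fold change was 1.46 ± 0.06 (adjusted p = 9.81e-11). FOSL2 had 62034, 64693 and 52010 with pladienolide B, against 29432, 30663 and 29114 with DMSO. Its groups did not overlap, and the ratio of the means was 2.00, with a log2 fold change of 1.00 ± 0.07 (adjusted p = 2.25e-08). FOSL1 and FOSL2 passed the test under all 20 alternative settings, with log2 fold changes of 0.66 to 1.49 for FOSL1 and 0.37 to 1.09 for FOSL2, both lowest with quantile normalisation.

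FOS and FOSB were low and varied more. FOS had 329, 649 and 679 in pladienolide B libraries and 113, 265 and 281 in DMSO libraries, where the lowest pladienolide B library still lay above the highest DMSO library. The log2 fold change of FOS was 1.36 ± 0.37 (adjusted p = 0.00451). Set to the same total per library, FOS had a log2 fold change of 0.89 with an adjusted p of 0.050, which just missed the threshold. FOSB had 250, 606 and 720 in pladienolide B libraries and 116, 270 and 231 in DMSO libraries. Replicate 1 of pladienolide B overlapped the DMSO values of FOSB, and the other pladienolide B libraries lay above them. The log2 fold change of FOSB was 1.30 ± 0.42 (adjusted p = 0.0144). This call was lost at the same total per library (0.83, adjusted p = 0.108), without replicate 2 of pladienolide B (1.13, adjusted p = 0.0545), without its replicate 3 (1.00, adjusted p = 0.0658) and without replicate 1 of DMSO (0.93, adjusted p = 0.0744). In the limma fit with a block for the replicate number, FOSB had an adjusted p of 6.4e-07 and FOS of 8.37e-08. With 6 of 7 members the pladienolide B and DMSO values did not overlap, as was so for 71.8% of all genes tested.

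**Figure D1:**
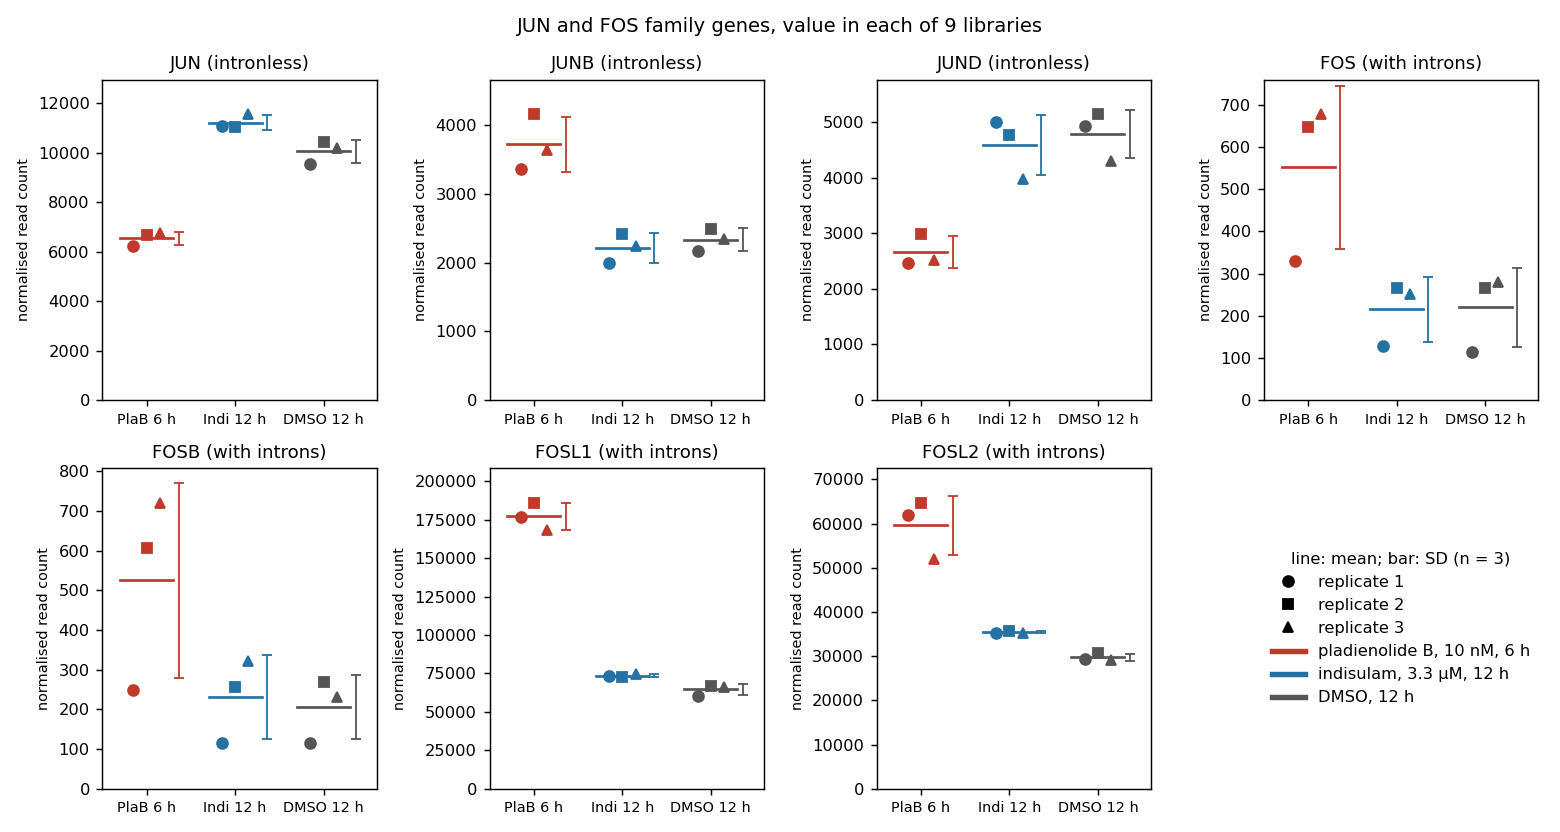
Normalised read count (y axis, from 0) of each member in the 9 libraries, by group on the x axis with pladienolide B on the left, indisulam next and DMSO on the right; symbols mark replicates, lines the mean and bars the SD (n = 3). The 4 FOS genes and JUNB sit higher with pladienolide B than with DMSO and JUN and JUND sit lower, while the circles of replicate 1 are lowest for FOS and FOSB in every group.

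The wide spread of FOS and FOSB had a shape shared by the 3 groups. The indisulam libraries held 127, 267 and 252 for FOS and 116, 256 and 323 for FOSB, so that replicate 1 was the lowest library of each group for both genes. The mean of replicates 2 and 3 was 2.02 times replicate 1 for FOS with pladienolide B, 2.04 times with indisulam and 2.41 times with DMSO. The same ratio for FOSB was 2.65 with pladienolide B, 2.49 with indisulam and 2.15 with DMSO. JUNB also had its lowest library in replicate 1 of each group, and so had 1697 of the 16846 genes tested, which is 10.1%. Among 21 other early genes with introns, 10 showed it, including the transcription factors EGR1, EGR3, ATF3, NR4A1 and KLF4 and the phosphatase DUSP1, and among 6 intronless early genes none did. EGR1 had 3344, 4697 and 5631 with pladienolide B, 854, 1925 and 1974 with indisulam, and 852, 1900 and 1715 with DMSO. The labels give no batch for the replicate numbers.

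The features of the deposited annotation overlap at FOS and FOSB, and the strand setting of the counting is not given, so reads of overlapping genes cannot be told apart by it. The feature named FOS spans those of JDP2, a repressor that pairs with JUN proteins, of BATF, another basic leucine zipper gene, of FLVCR2 and of ERG28, and it takes in part of TTLL5. Their mean normalised read counts were 110 with pladienolide B, 496 with indisulam and 535 with DMSO for JDP2. They were 146 with pladienolide B, 200 with indisulam and 171 with DMSO for BATF. FLVCR2 averaged 35.8 with pladienolide B, 117 with indisulam and 97.3 with DMSO, and both it and JDP2 were lower with pladienolide B, where FOS was higher. ERG28 averaged 2330 with pladienolide B, 1666 with indisulam and 1629 with DMSO. TTLL5 averaged 5252 with pladienolide B, 3432 with indisulam and 4149 with DMSO, and both were above FOS itself. FOSB lies within the feature of the repair gene ERCC1, which averaged 5311 with pladienolide B, 3727 with indisulam and 3781 with DMSO. The share of FOS and FOSB reads from these neighbours was not tested. JUND overlaps a pair of low features without a symbol, and FOSL2 overlaps FLJ31356, which averaged 5.38 with pladienolide B, 13.0 with indisulam and 7.31 with DMSO.

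**Figure D2:**
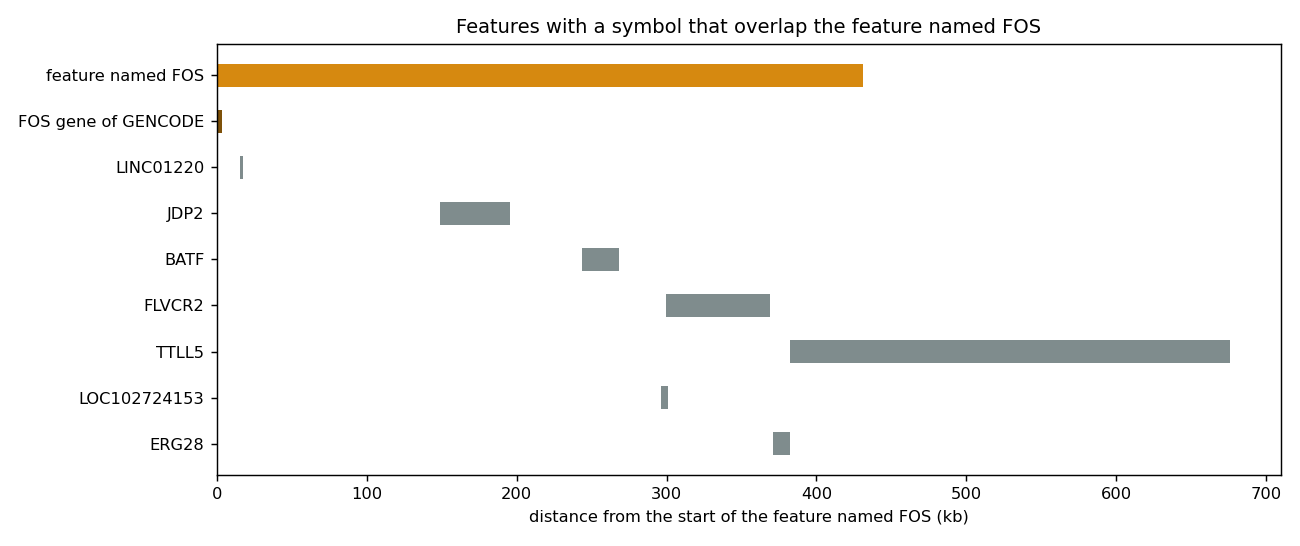
Extent (x axis, in kb from the start of the feature named FOS) of that feature, of the GENCODE gene FOS and of the overlapping features that carry a symbol, 1 per line. The GENCODE gene takes up the far left end of a feature that reaches over JDP2, BATF, FLVCR2 and ERG28 and into TTLL5.

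Indisulam against DMSO addressed a drug known to cause the loss of RBM39, in the same cells. RBM39 protein was not measured in these libraries. FOSL1 and FOSL2 rose a little and no member fell. The count that rose was 2 of 7, where 14.5% of all genes tested rose, and the count that fell was 0 of 7, where 12.4% fell. No member was lower at an unadjusted p under 0.05 in limma, and edgeR and DESeq2 called 0 lower. FOSL1 had 73219, 72761 and 74709 in indisulam libraries, against 60639, 66781 and 66323 in DMSO libraries, with no overlap. Its log2 fold change was 0.19 ± 0.06 (adjusted p = 0.0223). FOSL2 had 35204, 35610 and 35265 with indisulam, against 29432, 30663 and 29114 with DMSO, again with no overlap. The values of the groups did not overlap for 3 of 7 members (JUN, FOSL1 and FOSL2), as for 48.4% of all genes tested. The log2 fold change of FOSL2 was 0.25 ± 0.07 (adjusted p = 0.0174).

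Both calls sat near the threshold. FOSL1 lost it under 8 of 20 alternatives, among them TMM scaling (0.15, adjusted p = 0.0698), quantile normalisation (0.10, adjusted p = 0.137) and edgeR (0.14, adjusted p = 0.0586). FOSL1 also lost it without each indisulam replicate in turn (adjusted p = 0.0540 to 0.0825) and without replicate 1 of DMSO (0.14, adjusted p = 0.109). FOSL2 lost it without replicate 2 (adjusted p = 0.0551) or 3 (adjusted p = 0.0519) of indisulam and without replicate 1 (adjusted p = 0.0548) or 3 (adjusted p = 0.0623) of DMSO. JUN had 11073, 11028 and 11572 with indisulam, against 9536, 10441 and 10205 with DMSO. These JUN groups did not overlap, but the log2 fold change of 0.16 ± 0.06 missed the threshold (adjusted p = 0.0536), which it passed under 8 of the 20 alternatives. JUNB had 1989, 2411 and 2235 with indisulam and 2167, 2493 and 2337 with DMSO, and JUND had 5002, 4775 and 3976 with indisulam and 4921, 5144 and 4306 with DMSO. Both overlapped, with log2 fold changes of −0.08 ± 0.09 for JUNB (adjusted p = 0.574) and −0.07 ± 0.10 for JUND (adjusted p = 0.673). FOS (0.01 ± 0.37, adjusted p = 0.992) and FOSB (0.14 ± 0.42, adjusted p = 0.848) overlapped too, and their errors leave room for changes of the size seen for FOSL2.

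Set against indisulam directly, pladienolide B had the same members higher and lower. The 4 FOS genes and JUNB made 5 of 7 higher, where 34.7% of all genes tested were, and JUN and JUND made 2 of 7 lower, where 35.6% were. This comparison shares the pladienolide B libraries with the one against DMSO. The log2 fold changes were −0.78 ± 0.06 for JUN (adjusted p = 3.59e-08), −0.78 ± 0.10 for JUND (adjusted p = 8.8e-06) and 0.75 ± 0.09 for JUNB (adjusted p = 6.52e-06). They were 1.27 ± 0.06 for FOSL1 (adjusted p = 3.09e-10), 0.75 ± 0.07 for FOSL2 (adjusted p = 3.98e-07), 1.36 ± 0.37 for FOS (adjusted p = 0.00463) and 1.16 ± 0.42 for FOSB (adjusted p = 0.0252). The FOSB call was lost at the same total per library (0.75, adjusted p = 0.147), with DESeq2 (1.18, adjusted p = 0.0508), without replicate 2 (0.99, adjusted p = 0.0855) or 3 (0.87, adjusted p = 0.106) of pladienolide B and without replicate 1 of indisulam (0.73, adjusted p = 0.138). The hours differ between the drugs as well (6 h and 12 h).

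**Figure D3:**
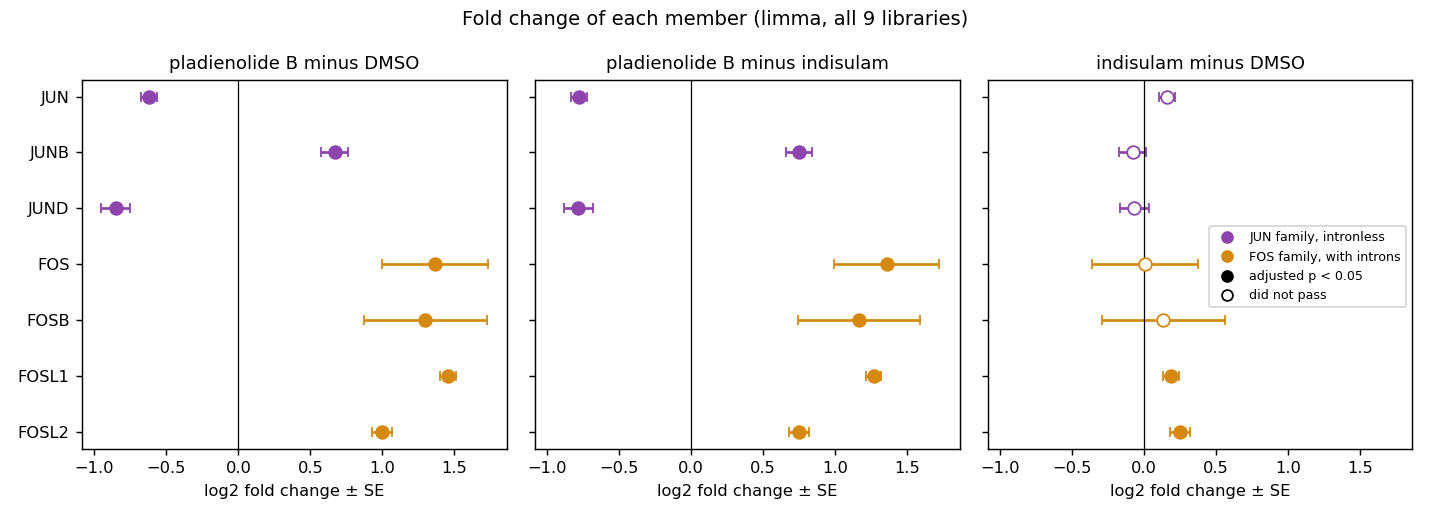
Log2 fold change ± SE (x axis) of each member in the 3 comparisons, from limma over all 9 libraries; filled points passed an adjusted p of 0.05 and open points did not. JUN and JUND lie left of 0 and the other members right of 0 in both comparisons of pladienolide B, and with indisulam all members lie within 0.25 of 0.

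The intronless JUN genes and the intron-bearing FOS genes were set against each other over all 9 libraries. For pladienolide B against DMSO, the mean log2 fold change was −0.27 over the 3 JUN genes and 1.28 over the 4 FOS genes, a difference of −1.55. The JUN genes ranged from −0.85 to 0.67 and the FOS genes from 1.00 to 1.46, so the families did not overlap with the authors' scaling. With quantile normalisation they overlapped, since JUNB stood at 0.70, above FOSL1 at 0.66 and FOSL2 at 0.37. They also met in pladienolide B against indisulam, where JUNB and FOSL2 both had 0.75. The difference was −1.40 with pladienolide B against indisulam and −0.14 with indisulam against DMSO. Without replicate 1 of DMSO the last of these was 0.05. Per library, the mean log2 value of the JUN genes minus that of the FOS genes was −0.56, −0.93 and −1.04 with pladienolide B, 0.94, 0.46 and 0.29 with indisulam, and 1.08, 0.55 and 0.48 with DMSO. Transcript length enters this score, so only its differences between libraries can be read. The pladienolide B libraries lay below all the others, and the indisulam and DMSO libraries overlapped. Replicate 1 had the highest score in each group, and each indisulam library lay below the DMSO library of the same number. The numbers were not taken to pair the samples. With 3 and 4 chosen genes, the family difference is a description without a test, and the families differ in more than introns.

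Per length of transcript, FOSL1 made up most of the AP-1 RNA of these cells in every group. It averaged 106089 ± 5220 normalised reads per kb with pladienolide B, 44076 ± 610 with indisulam and 38695 ± 2050 with DMSO (SD, n = 3). That was 87.9% of the 7-member sum per kb with pladienolide B, 78.2% with indisulam and 77.4% with DMSO. FOSL2 came next, with 8882 ± 997 per kb with pladienolide B, 5271 ± 32.6 with indisulam and 4433 ± 122 with DMSO. In DMSO and indisulam libraries the order went on with JUN, JUND, JUNB, FOS and FOSB, where JUN and JUND overlapped in DMSO and FOS and FOSB overlapped in both groups. With pladienolide B the order after FOSL2 was JUNB, JUN, JUND, FOS and FOSB, where JUNB and JUN overlapped, as did FOS and FOSB. JUNB averaged 2043 ± 222 per kb with pladienolide B, 1215 ± 116 with indisulam and 1282 ± 89.5 with DMSO. JUN averaged 1849 ± 76.5 per kb with pladienolide B, 3171 ± 85.2 with indisulam and 2842 ± 133 with DMSO. The summed FOS family stood at 21.7 ± 1.41 times the summed JUN family per kb with pladienolide B, 7.24 ± 0.30 times with indisulam and 6.47 ± 0.32 times with DMSO, a ratio set mainly by FOSL1. For FOS this scale uses the length of the GENCODE transcript, not of the long feature.

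**Figure D4:**
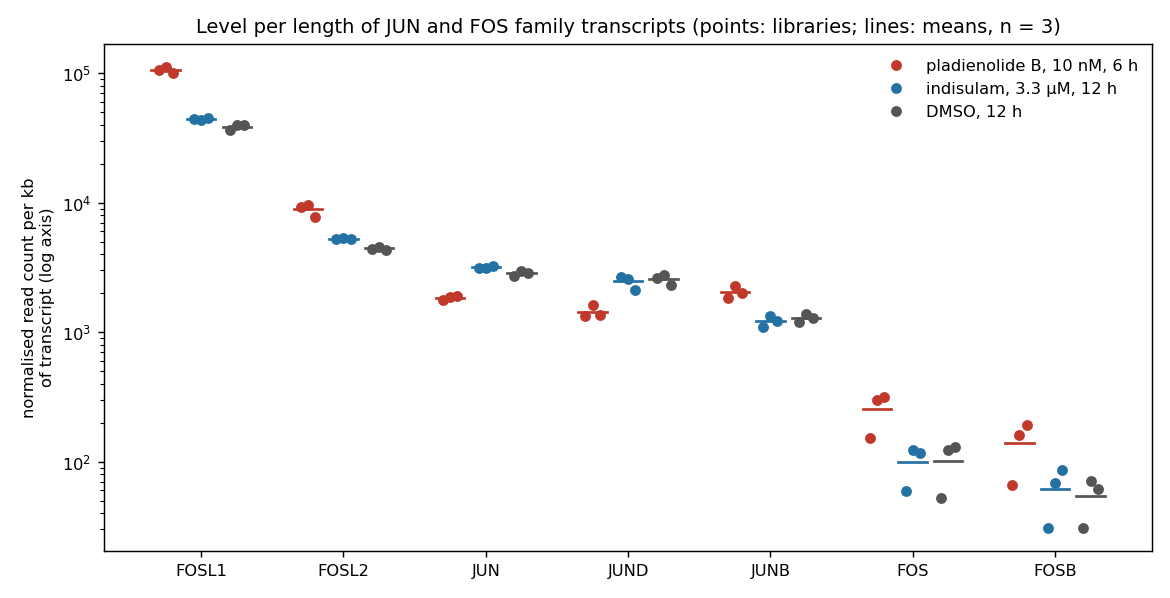
Normalised read count per kb of transcript (y axis, log scale) of each member; points are libraries, with pladienolide B left of indisulam and DMSO for each gene, and lines are means (n = 3). FOSL1 lies above all other members in every group, and JUNB lies above JUN by its mean with pladienolide B only.

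Genes whose pattern over the 9 libraries was nearest to that of a member were found by the root mean square difference of centred log2 values, among 11526 tested genes with a symbol and a mean of at least 100. FOS was nearest to EGR1 (0.20), FOSB (0.21) and NR1D1 (0.34), and FOSB was nearest to FOS (0.21), EGR1 (0.29) and LURAP1L (0.39). For the other members the genes named here came closer, at 0.05 to 0.08 in log2 units. JUN had POM121C and PARD3 among its 3 nearest genes, JUNB was nearest to NPM3, SIAH2 and SUCLG1, and JUND to ZBTB8A, NCKIPSD and KCNN4. FOSL1 was nearest to ZFP36L1, RBM48 and ETV3, and FOSL2 to REPIN1, ABHD17C and APLP2. Between members the closest patterns were those of JUN and JUND (0.18), of JUNB and FOSL2 (0.19) and of FOS and FOSB (0.21), and those of JUND and FOS lay farthest apart (1.17).

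Other immediate early genes gave a wider view of gene structure. With pladienolide B against DMSO, 18 of 21 early genes with introns rose and 1 fell, where 34.3% of all genes tested rose and 35.5% fell. The median log2 fold change was 1.19, against −0.01 for all genes. At the same total per library the split was 13 higher and 3 lower. GADD45B, a stress-response gene, averaged 27657 ± 2282 with pladienolide B and 4410 ± 278 with DMSO (log2 fold change 2.65), and CCN1, a matricellular protein gene, 244303 ± 10626 with pladienolide B and 43666 ± 2133 with DMSO (2.48). BTG2, an antiproliferative gene, averaged 81.0 ± 29 with pladienolide B and 323 ± 16.5 with DMSO (−2.05), the one that fell. GENCODE v29 does not list CCN1 and CCN2 under these symbols, and the other genes of the list had more than 1 exon. Of 6 intronless early genes 4 rose and 1 fell, with a median of 0.62, so a rise was not limited to early genes with introns. CEBPD averaged 3651 ± 724 with pladienolide B and 706 ± 41.5 with DMSO (2.35), and IER5 averaged 36891 ± 3538 with pladienolide B and 15239 ± 198 with DMSO (1.27). CEBPB, like CEBPD a basic leucine zipper factor, had a log2 fold change of 0.85, IER2 of 0.40, RHOB of 0.22 (adjusted p = 0.115) and IER5L of −1.10. IER2 turned to −0.07 (adjusted p = 0.371) at the same total per library, and a further GENCODE transcript of IER2 has 2 exons.

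With indisulam against DMSO, 7 of the 21 early genes with introns rose and 1 fell (median 0.17, against 0.05 for all genes). Of all genes tested 14.5% rose and 12.4% fell. NR4A2, an orphan nuclear receptor gene, averaged 116 ± 22.9 with indisulam and 47.4 ± 6.12 with DMSO (log2 fold change 1.26), and DUSP1 averaged 3325 ± 275 with indisulam and 1836 ± 144 with DMSO (0.86). IER3 was the one that fell (−0.27, adjusted p = 0.00659). Of the intronless early genes CEBPD (0.39) and IER5 (0.31) rose. None of the 6 fell, with 0 lower also at an unadjusted p under 0.05 and with edgeR and DESeq2. Between the drugs, 15 of the 21 with introns were higher with pladienolide B and 2 lower (BTG2 and KLF6), or 8 and 3 at the same total. Of the 6 without introns 5 were higher and 1 lower (IER5L), or 3 and 1 at the same total. Of all genes tested 34.7% were higher and 35.6% lower.

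**Figure D5:**
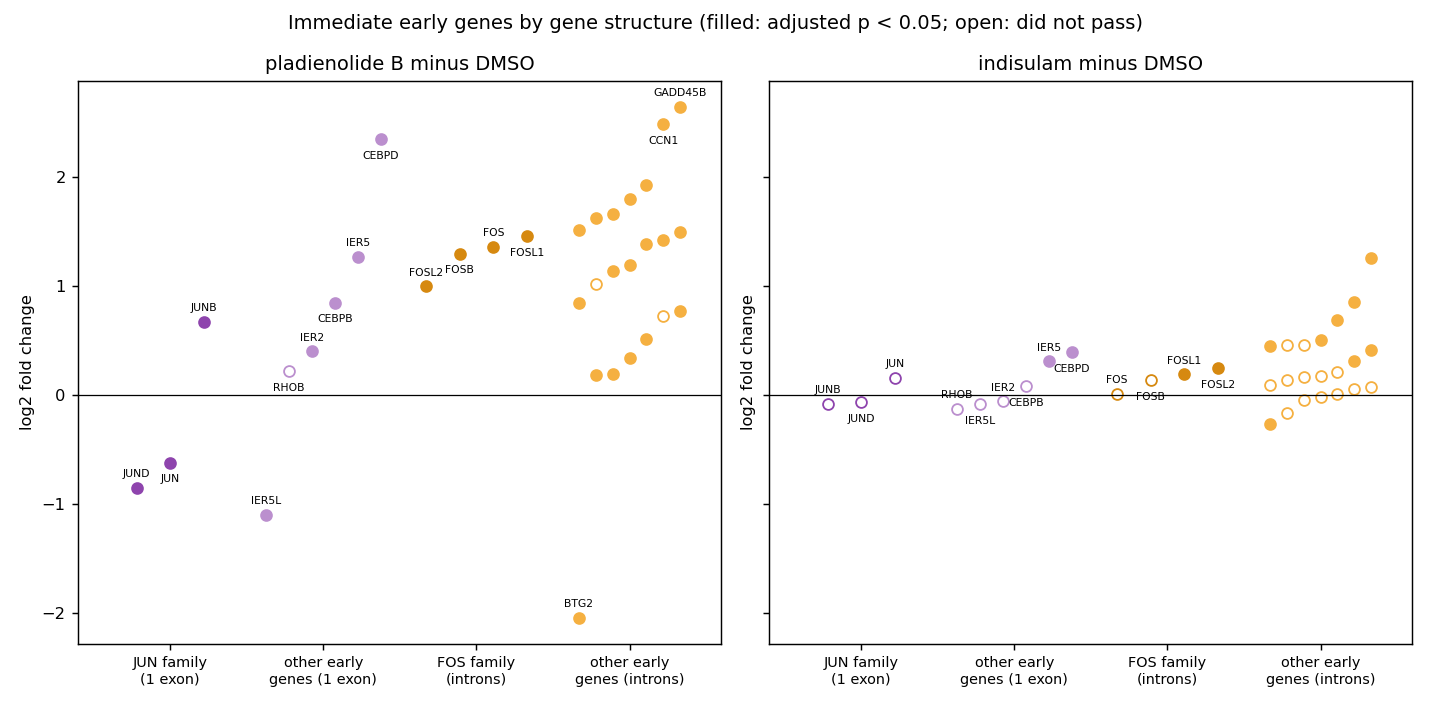
Log2 fold change (y axis) of JUN family genes, other intronless early genes, FOS family genes and other early genes with introns, with pladienolide B (left) and indisulam (right) against DMSO; each point is a gene, filled where it passed an adjusted p of 0.05. With pladienolide B the 4 FOS genes sit between 1.00 and 1.46, while intronless genes spread from IER5L at −1.10 to CEBPD at 2.35.

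Of 13 tested basic leucine zipper genes whose proteins pair with FOS or JUN proteins, 7 fell and 3 rose with pladienolide B against DMSO, where 35.5% of all genes tested fell and 34.3% rose. The median was −0.23, and at the same total per library 9 fell and 1 rose. JDP2 averaged 110 ± 2.94 with pladienolide B and 535 ± 75.6 with DMSO (log2 fold change −2.27), and BATF2 averaged 12.7 ± 10.2 with pladienolide B and 56.9 ± 7.51 with DMSO (−2.32). MAFF, a small MAF protein gene, averaged 8349 ± 430 with pladienolide B and 4203 ± 316 with DMSO (0.99). With indisulam 4 of the 13 rose, among them MAFF (0.62), where 14.5% of all genes tested rose. That count was 2 with edgeR, with TMM scaling and at the same total per library, and 4 with DESeq2. It was 2 without replicate 1 of indisulam or replicate 1 or 2 of DMSO, and 1 without replicate 2 of indisulam or replicate 3 of DMSO. None of the 13 fell in limma, edgeR or DESeq2, or at an unadjusted p under 0.05. Against indisulam, 9 were lower with pladienolide B and 1 (MAFF) was higher, where 35.6% of all genes tested were lower and 34.7% higher. The MAFF value turned to −0.04 at the same total per library.

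The kinases and promoter factors that lead to FOS and JUN were counted in the same way. Of 15 MAP kinase pathway genes, 5 rose and 6 fell with pladienolide B against DMSO, shares near the 34.3% and 35.5% of all genes tested, and 1 rose and 9 fell at the same total per library. MAP2K7, an activator of JNK, averaged 498 ± 65.7 with pladienolide B and 2182 ± 83.7 with DMSO (−2.14), and MAPK14 (p38 alpha) averaged 826 ± 81.6 with pladienolide B and 3031 ± 51.5 with DMSO (−1.88). MAPK3 (ERK1; 0.76), which overlaps features with higher counts, and RPS6KA4 (MSK2; 0.53) rose. With indisulam 2 of the 15 rose, MAP3K1 (0.42) and the JNK gene MAPK8 (0.32), and 3 fell, including MAPK9 (−0.29) and RPS6KA4 (−0.28). Of all genes tested 14.5% rose and 12.4% fell with indisulam. With TMM scaling or at the same total 1 of the 15 rose and 3 fell. Of 11 factors that act at FOS or JUN promoters, 8 fell and 3 rose with pladienolide B against DMSO. Their median was −0.59, and at the same total 9 fell and 0 rose. The SRF coactivators MRTFB and MRTFA fell most, with 409 ± 29.7 with pladienolide B and 2037 ± 108 with DMSO for MRTFB (−2.32) and 280 ± 56.1 with pladienolide B and 1271 ± 84.0 with DMSO for MRTFA (−2.20), whose feature overlaps SGSM3. SP1 (0.60) and ELK3 (0.55) rose. With indisulam MRTFA (0.41) and MEF2D (0.31) rose, and 0 of the 11 fell in limma and DESeq2, 1 in edgeR and 1 at an unadjusted p under 0.05. With TMM scaling or at the same total 1 rose and 1 fell, and with quantile normalisation 3 rose and 1 fell. With pladienolide B against indisulam, 6 kinase genes were higher and 7 lower (2 and 9 at the same total). Of the promoter factors 2 were higher and 8 lower (0 and 9), where 34.7% of all genes tested were higher and 35.6% lower.

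Of 14 tested genes for the decay of FOS and JUN products, 6 rose and 5 fell with pladienolide B against DMSO, shares near those of all genes tested (34.3% and 35.5%), and 3 rose and 11 fell at the same total per library. ZFP36L1, which binds AU-rich elements and speeds mRNA decay, averaged 21950 ± 991 with pladienolide B and 8307 ± 239 with DMSO (1.40), and HNRNPD, another AU-rich element binder, rose too (0.79). ITCH, a ubiquitin ligase for JUN proteins, averaged 1670 ± 296 with pladienolide B and 5906 ± 161 with DMSO (−1.84), and DET1, part of a ligase for JUN, fell (−1.59). With indisulam 3 rose, including the deadenylase gene CNOT8 (0.45) and ITCH (0.38), and PARN, a poly(A) ribonuclease gene, fell (−0.68). Of all genes tested 14.5% rose and 12.4% fell with indisulam. At the same total 1 of the 14 rose and 1 fell. With pladienolide B against indisulam 7 of the 14 were higher and 6 lower, where 34.7% of all genes tested were higher and 35.6% lower. The counts were 4 and 10 at the same total and 5 and 8 with quantile normalisation.

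Of 18 known AP-1 target genes, 9 rose and 3 fell with pladienolide B against DMSO, where 34.3% of all genes tested rose and 35.5% fell. The median was 0.45. But 7 rose and 8 fell at the same total per library, 9 and 5 with TMM scaling and 5 and 3 with quantile normalisation. The cytokine genes IL6 and CXCL8 rose most, with 1614 ± 209 with pladienolide B and 405 ± 70.4 with DMSO for IL6 (2.00) and 2706 ± 293 with pladienolide B and 1124 ± 408 with DMSO for CXCL8 (1.33). IL11 (−0.55) and the urokinase gene PLAU (−0.35) fell. With indisulam the hyaluronan receptor gene CD44 rose (0.22) and the cytokine gene LIF fell (−0.23), and 16 of 18 did not pass. Of all genes tested 14.5% rose and 12.4% fell with indisulam. With TMM scaling 0 of the 18 rose and 1 fell. Relative to indisulam, 10 were higher with pladienolide B and 4 lower, where 34.7% of all genes tested were higher and 35.6% lower. The counts were 5 higher and 7 lower at the same total and 7 and 6 with quantile normalisation.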

How the data were processed

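Per the labels' protocols, RNA was extracted on silica columns with DNase and its polyadenylated part made into 9 stranded libraries (type fr-secondstrand). STAR 2.7.5a, SAMtools, Picard, FastQC, DESeq2 and the build hg38 are named in the submitters' processing notes. The sources used here do not give the tool that counted the reads or its strand setting. Deposited values are a signal: a read count that the authors divided by a DESeq2 size factor of its library, per the labels and the table's name. All values (100%, tolerance 0.01) were whole multiples of the value of 1 read, so reads were recovered for count tests. A count of 3 reads, the limit that 0 allows, stood at values of 2.48 to 3.87, and covers counting error only. No 2 libraries of a group agreed within sampling noise (lowest chi-square per gene 8.63).

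The values were tested with limma 3.58.1 (R 4.3.3) on log2(value + 1), which understates folds of low genes: the fit held all 9 libraries, its variances were moderated along a mean trend, and two-sided p-values had Benjamini-Hochberg adjustment over the 16846 genes with a mean of at least 10, threshold 0.05. Alternatives were pseudocounts of 0.5 and 10, no filter, a mean of at least 50, TMM, the same total and quantile normalisation, edgeR 4.0.16 and DESeq2 1.42.0 on the recovered reads, the compared groups alone, a replicate block and leaving out each library.

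The members, the gene lists and the tests were chosen with earlier results of these data known. Named were all members, all intronless early genes, per list and comparison up to 2 called genes in each direction by fold change, the 3 genes nearest each member and features that overlap a member; some genes that the rule names are left out here, and further early genes in a count were named after their values were seen. Of 126 listed genes 124 matched a symbol. Exons are from GENCODE v29 and promoters from RefSeq (GRCh38.p14), which matched 6 of 7 members.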

Additional observations from a re-analysis of the deposited data

How the results depend on the processing

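Of the counts of members called and the family differences, 170 values under the 20 alternatives kept their direction and stayed near the reported value, 9 moved and 1 reversed. The count of members higher with indisulam than with DMSO was 2 as reported and 1 with no filter on low values, with TMM scaling and with edgeR; leaving out 1 library gave 0 to 3, with 0 without replicate 2 or 3 of indisulam or replicate 1 of DMSO and 1 without replicate 1 of indisulam or replicate 3 of DMSO. The count higher with pladienolide B than with DMSO was 5 as reported and 2 at the same total per library, where the median of all genes also moved, to −0.48 against DMSO and −0.40 against indisulam; leaving out 1 library gave 4 to 5, and 2 lower. Against indisulam, leaving out 1 library gave 4 to 5 higher and 2 lower. The mean log2 fold change of the JUN family minus that of the FOS family ran from −1.69 to −1.36 for pladienolide B against DMSO, from −1.55 to −1.22 for pladienolide B against indisulam, and from −0.33 to 0.05 for indisulam against DMSO when 1 library was left out, and it reversed to 0.0460 without replicate 1 of DMSO. The sign of 3 named genes changed at the same total per library: IER2 against DMSO (−0.0723), and MAFF (−0.0447) and RHOB (−0.0732) against indisulam, all with pladienolide B. The causes were not tested. Where a left-out library leaves 2 in its group, the spread is shared over all groups.

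Same-numbered libraries of different groups correlated at 0.00266 to 0.128 in their deviations from the group means, over 0.1 in 3 of 9 pairs. By this rule the numbers were not taken to pair the samples. Whether the numbers carry a shared effect was not tested on its own. Replicate 1 was the lowest library of each group for 10.1% of all genes tested. With a replicate block, indisulam had 3548 genes higher and 2739 lower than DMSO, against 2437 and 2095 without it, and 3 members higher, the third being JUN (adjusted p = 0.010). The block changed no call of a member in the comparisons of pladienolide B. FOS and FOSB have the fewest reads per library among the members, and their values varied within groups with a coefficient of variation of 35.1% to 46.7%.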

Other observations

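Intronless genes beyond the early ones were also compared. Of 194 tested protein-coding genes with 1 exon in GENCODE v29, leaving out histone genes and the members, 126 were higher and 20 lower with pladienolide B than with DMSO (65.0% and 10.3%), with a median log2 fold change of 0.78. Among 12074 protein-coding genes with introns, 4001 were higher and 4935 lower (33.1% and 40.9%), with a median of −0.10. The members JUN and JUNB, left out of these counts, also have 1 exon there, and in this comparison JUN fell and JUNB rose. JUND, left out as well, fell, but a further GENCODE transcript of it has 2 exons. With indisulam against DMSO, 60 of the 194 were higher and 3 lower (30.9% and 1.55%; median 0.21), and of the genes with introns 1693 were higher and 1790 lower (median 0.03). With pladienolide B against indisulam, 108 of the 194 were higher and 32 lower (median 0.50), and of the genes with introns 4262 were higher and 4847 lower (median −0.05). These are counts over genes without a test of the difference, and genes are not independent replicates.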
